A study of Homo sapiens with 7 samples.

Results

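The albumin gene family of humans has 4 well-described members, ALB, AFP, AFM and GC, and all 4 were found by symbol among the 30032 loci of the RNA-Seq table of HepG2, in which 23303 loci carry a symbol. ALB, AFP and AFM lie in a row on chromosome 4 and are read in the same direction. GC lies on the same chromosome and on the other strand. HepG2 is an established human liver cancer cell line. There were 7 samples of untreated HepG2 cells, 1 per assay. Nucleosomes were mapped by native MNase-Seq, in which chromatin that was not crosslinked was digested. ChIP-Seq on crosslinked and sonicated chromatin covered the activation marks H3K4me3, H3K9ac and H3K27ac as well as H3K27me3 and H3K9me3, and RNA-Seq covered total RNA after removal of ribosomal RNA. Since each assay has 1 sample and there is no second condition, there is no replicate error and no test, and the values below describe these libraries. Coordinates are on hg19, the build named in the submitters' processing notes, with the first base counted as 1.

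The proteins of this family are carriers that hepatocytes secrete into the blood. ALB, serum albumin, is the main protein of adult plasma and binds fatty acids, bilirubin and many drugs. AFP, alpha-fetoprotein, is its fetal counterpart, made by yolk sac and fetal liver, shut down around birth and made again by many liver tumours. AFM, afamin, binds vitamin E and Wnt proteins, and GC, the vitamin D-binding protein, carries vitamin D and captures actin in plasma. Of the marks, H3K4me3 and H3K9ac are known from active promoters, H3K27ac from active promoters and enhancers, H3K27me3 from Polycomb repression and H3K9me3 from heterochromatin.

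The sequences before the RefSeq starts of ALB, AFP and AFM are shown as background to the marks at these genes. They are RefSeq sequences on GRCh38.p14, a build other than that of the peaks, so no position is compared between them. Marks described further on are placed from the start of the listed locus, which can differ from the RefSeq start. Distances of motifs and of marks are thus not on the same scale. Each gives the 250 bases before the start, 5′ to 3′ on the plus strand, with ALB at chr4:73404037-73404286, AFP at chr4:73435971-73436220 and AFM at chr4:73481495-73481744. Capitals mark matches to the motif letters given after them.
ALB: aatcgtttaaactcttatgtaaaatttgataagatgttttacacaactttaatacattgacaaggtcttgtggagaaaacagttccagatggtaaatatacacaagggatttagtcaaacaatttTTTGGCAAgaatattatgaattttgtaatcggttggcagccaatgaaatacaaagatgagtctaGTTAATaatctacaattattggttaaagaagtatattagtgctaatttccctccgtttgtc
AFP: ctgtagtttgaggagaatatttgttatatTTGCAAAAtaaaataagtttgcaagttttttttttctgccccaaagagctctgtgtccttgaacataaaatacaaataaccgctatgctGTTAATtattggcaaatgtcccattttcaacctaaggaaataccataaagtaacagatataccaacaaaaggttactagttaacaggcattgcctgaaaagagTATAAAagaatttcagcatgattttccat
AFM: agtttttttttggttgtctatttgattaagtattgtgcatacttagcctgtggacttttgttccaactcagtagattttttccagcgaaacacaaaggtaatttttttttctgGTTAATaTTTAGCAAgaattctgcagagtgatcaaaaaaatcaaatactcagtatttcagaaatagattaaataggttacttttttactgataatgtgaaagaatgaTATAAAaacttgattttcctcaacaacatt

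GTTAAT, letters known from promoters of liver genes, was found in all 3 stretches, at bases -61 to -56 from the start of ALB, -132 to -127 from that of AFP and -137 to -132 from that of AFM. Of 35116 human promoters of the same length, 6.23% held it on either strand. TTGCNNAA, letters of the C/EBP factors, was also found in all 3, against 9.05% of promoters, at bases -125 to -118 at ALB, -221 to -214 at AFP and -130 to -123 at AFM. TATAAA, letters of the TATA box, was found at AFP and AFM, at bases -29 to -24 and -30 to -25. The ALB stretch did not hold these exact letters, and 10.7% of promoters did. Other forms of the TATA box were not searched. The letters TGTTTAC and the variant TGTTTGC of the FOXA factors, CAAAGTCCA of HNF4 and AGGTCA or its reverse TGACCT of nuclear receptors were in none of the 3. No motif match overlapped another. The stretches were poor in G and C, with 30.0% at ALB, 31.6% at AFP and 28.0% at AFM, where the median promoter had 58.0%. A match is a run of letters and not a measured binding site.

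ALB had the highest level of all genes analysed, AFP was number 3, and GC and AFM were far lower. RNA-Seq was deposited as FPKM, a level per transcript length and library size, in 2 columns called run 1 and run 2 here. ALB, listed at chromosome 4 from 74269690 to 74287767, was at an FPKM of 9933 (run 1) and 10088 (run 2). Among 13289 genes with coordinates and a symbol of their own it ranked first by the mean of the runs, and it made up 1.16% of the summed FPKM of all loci in run 1 and 1.03% in run 2. AFP, from 74301933 to 74321492, was at 3732 (run 1) and 3864 (run 2). By the mean, APOA2, an apolipoprotein of HDL, alone stood between them, so AFP ranked number 3. Among 22065 named loci, which include those with shared coordinates, it ranked number 5. In run 1 alone the translation factor gene EEF1A1 with 3781 and IL12RB2, a cytokine receptor gene, with 5476 were also above AFP. IL12RB2 was at 0.0324 in run 2, and both genes were picked after their values were seen. In both runs ALB was above AFP, by 2.66-fold in run 1 and 2.61-fold in run 2.

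GC, from 72607411 to 72671060, was at an FPKM of 8.90 (run 1) and 9.02 (run 2), which placed it at number 3754 of the 13289 genes. AFM, from 74347462 to 74369718, was at 1.40 (run 1) and 1.61 (run 2) and ranked number 6049. AFM thus lay just above an FPKM of 1, which 47.6% of genes reached, as did all 4 members. The runs of AFM differed by 13.9% of their mean, those of GC, ALB and AFP by at most 3.48%. The order ALB, AFP, GC, AFM was the same in both runs. On the mean of the runs, ALB was 1117-fold above GC and 6643-fold above AFM, and GC was 5.95-fold above AFM. For comparison, the median FPKM of all genes was 0.583.

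**Figure D1:**
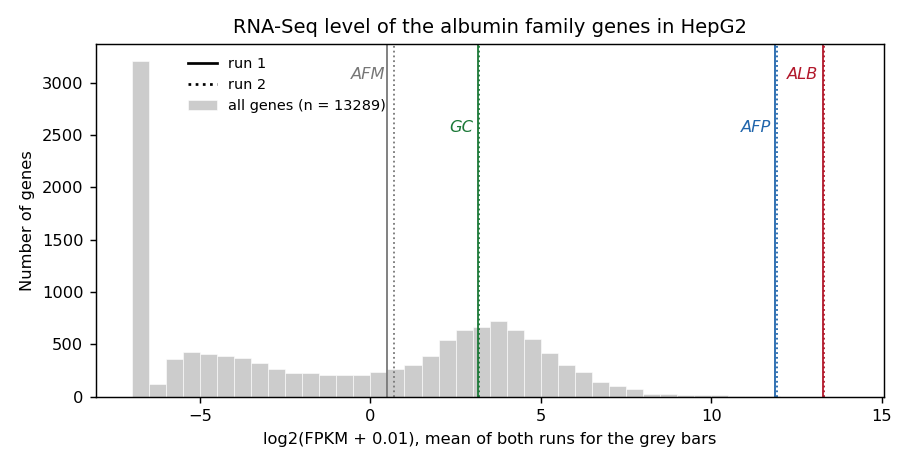
Number of genes (y axis) by log2(FPKM + 0.01) (x axis), grey for 13289 genes by the mean of both runs, with a solid line for run 1 and a dotted line for run 2 of each albumin family gene. ALB and AFP stand at the upper end of the range, GC near the peak of the expressed genes and AFM on its lower shoulder.

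Marks were read at nucleosome positions. The MNase-Seq map lists 14217405 positions, of which 203848, or 1.43%, carried a peak of at least 1 of the 5 marks. These shares, and each comparison with them, hold for the lists used here, which hold fewer marked positions than the study describes, so an unmarked position means no call in these lists. Each mark was called at these positions without heights or read numbers, so the depth behind a single call is unknown. The 95% intervals of shares, computed by the exact Clopper-Pearson method, cover the counting error alone. They treat positions as independent, so they are too narrow where marked positions lie in runs. The TSS is the end of the locus at which the gene starts, and a position is placed by its midpoint.

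Marked positions were frequent in the loci of ALB and AFP, and there was 1 in GC and none in AFM. In the ALB locus 19 of 90 positions were marked, or 21.1% (13.2 to 31.0), and in the AFP locus 21 of 101 or 20.8% (13.4 to 30.0). In the AFM locus 0 of 122 positions were marked, which allows a share of up to 2.46% taken as 3 counts, or 2.98% by the upper bound of the exact interval. In the GC locus 1 of 319 was marked, or 0.313% (0.00794 to 1.73). The shares of ALB and AFP were above the genome-wide share with their whole interval, while the interval of GC held it. The limit for AFM did not fall below it, so at this number of positions AFM could not be told apart from the genome. Marked positions of ALB and AFP lay in runs, so their intervals are too narrow, and the genome-wide share includes positions outside genes.

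Counted over the locus and 20 kb on either side, ALB had 28 positions with H3K4me3, 21 with H3K9ac, 19 with H3K27ac, 1 with H3K27me3 and 2 with H3K9me3. AFP had 15, 7, 10, 0 and 5 positions with these marks in the same order. AFM had 0 positions with any activation mark, 0 with H3K27me3 and 3 with H3K9me3. GC had 0 with any activation mark, 1 with H3K27me3 and 2 with H3K9me3. The windows of ALB, AFP and AFM overlap. Of the 28 H3K4me3 positions counted for ALB, 13 lay in its own locus, 1 between the genes and 14 in the AFP locus. At least 1 H3K4me3 position in such a window was found for 2 of the 4 members and for 69.9% of all genes, H3K9ac for 2 and 70.4%, and H3K27ac for 2 and 63.2%. For H3K27me3 the count was 2 of 4 beside 39.8%, and for H3K9me3 it was 4 of 4 beside 36.9%.

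At ALB the activation marks formed a block inside the gene with H3K4me3, H3K9ac and H3K27ac together on the same nucleosomes. No position from the TSS to 2 kb before it was marked. Going into the gene, the first marked position lay at 744 bp and carried H3K4me3/H3K9ac, and the next, at 1244 bp, carried H3K4me3 alone. The 6 positions at 1512, 1864, 2032, 2192, 2372 and 2537 bp all carried the 3 activation marks together, the trivalent mark here called T. A last T followed at 4622 bp. The 13 H3K4me3 positions of the locus spanned 4018 bp, from 74270364 to 74274381, over 19 nucleosome positions of which 5 had no mark. H3K9ac reached farther, with positions carrying it alone at 8180 and 8572 bp.

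The T at ALB lay farther from the TSS than at most genes. Of 5554 genes with an FPKM of at least 1 and a T within 5 kb, the nearest T lay at a median of 209.5 bp, and 821 bp was the 90th percentile. For 95.3% of them it was nearer than the 1512 bp at ALB. The count of T within 2 kb was therefore 2, and it was 0 within 1 kb and 7 within 5 kb. The ALB locus is listed 882 bp longer than the RefSeq gene, so its true start may lie inside the listed one. The lengths alone do not say at which end the difference lies, and the RefSeq starts were not carried over to hg19 to settle it. With the TSS moved inward by all 882 bp, an alternative added after the values were seen, 6 T lay within 2 kb. A smaller shift was not tested. A T within 2 kb was found at 1 of the 4 members and at 42.9% of all genes.

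The T at 2192 bp, from 74271812 to 74271951, also carried H3K9me3. In the whole genome 114 of 42887 T positions did so, or 0.266% (0.219 to 0.319). Farther into ALB, H3K27me3 was called at 1 position, at 6083 bp, and H3K9me3 at another, at 7734 bp. No further H3K9me3 or H3K27me3 position was called in the ALB locus.

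At AFP the block at the start carried H3K4me3 without H3K27ac, although the gene ranked number 3 by level. The 14 H3K4me3 positions of the locus spanned 2910 bp, from 74302547 to 74305456, and covered all but 1 of the 15 nucleosome positions there. Of these, 10 carried H3K4me3 alone and 4 carried H3K4me3/H3K9ac, at 684, 1669, 1971 and 2084 bp from the TSS. H3K9ac alone followed at 3959, 4549 and 5024 bp. No position of the AFP locus carried T, and none within 2 kb of the TSS carried H3K27ac. The number of H3K4me3-only positions within 5 kb of the TSS, 10, was higher than at 99.95% of all genes. ALB had 3 there.

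Genes expressed like AFP mostly carried H3K27ac at the start. Of 30 genes with an FPKM of at least 1000, 26 had H3K27ac within 2 kb of the TSS, 26 had H3K4me3 and 25 had T. AFP was the only 1 of the 30 that had H3K4me3 but no H3K27ac there. IL12RB2 belonged to the 30 through run 1 alone and had no activation mark. Among all 5853 genes with an FPKM of at least 1 and H3K4me3 within 2 kb, 411, or 7.02%, had no H3K27ac. By level AFP was the highest of these 411, and the next, named after its value was seen, was ALDOA, the glycolytic enzyme aldolase A, with an FPKM of 526. The pattern depends on the window. Within 5 kb of the TSS AFP had 6 H3K27ac positions, all of them upstream.

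That H3K27ac lay between ALB and AFP. In the 14.2 kb between the loci, 8 of 71 positions were marked, from 74296523 to 74299506, and all 8 carried H3K27ac. Relative to the TSS of AFP they were at -5340, -5171, -4971, -3666, -3099, -2991, -2821 and -2496 bp. The position at -2991 bp also carried H3K4me3, and the other 7 carried H3K27ac alone. None carried H3K9ac. The upstream region of AFP is known for enhancers that act in liver, and whether these positions belong to them was not tested. Inside AFP, H3K27ac alone was called at a pair of neighbouring positions at 9814 and 9969 bp.

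ALB had less of this in the 20 kb before it. Of 99 positions there 4 were marked, with H3K27ac alone at -5843, -2813 and -2693 bp and H3K9ac alone at -5738 bp. In common with AFP, it had no activation mark in the 2 kb before the TSS, with 4 marked positions in the 2 kb after it for ALB and 7 for AFP. Among 5937 genes with an FPKM of at least 1 and an activation mark within 2 kb, 30.2% had these marks after the TSS alone, and the medians were 1 marked position before and 4 after.

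**Figure D2:**
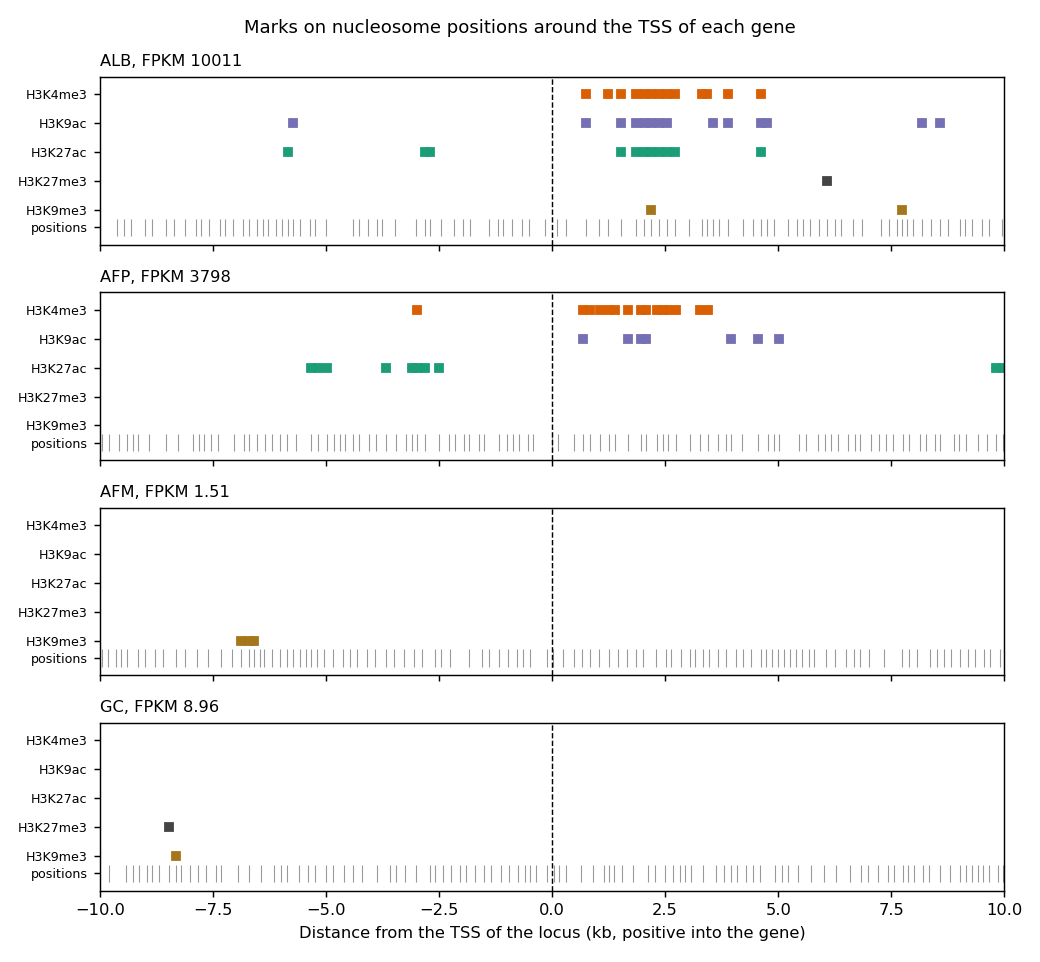
Marks on nucleosome positions by distance from the TSS (kb, positive into the gene) for ALB, AFP, AFM and GC, with a coloured square for each position that carries the mark named on the y axis and a grey tick for every listed position. ALB shows the 3 activation marks together after the TSS, AFP shows H3K4me3 there and H3K27ac before it, and AFM and GC show no activation mark within 10 kb.

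AFM and GC, both above the median level of all genes, had no activation mark called in the locus or the 20 kb around it. Between AFP and AFM 3 of 133 positions were marked, all with H3K9me3 and next to each other, at -6890, -6700 and -6585 bp from the TSS of AFM. In the 20 kb after AFM 0 of 106 positions were marked, which allows a share of up to 2.83% taken as 3 counts, or 3.42% by the upper bound of the exact interval. At GC, H3K9me3 was called near the 3′ end of the gene, at 62473 bp from the TSS. Before the gene, H3K9me3 at -8322 bp and H3K27me3 at -8482 bp were on neighbouring positions. In the 20 kb after GC 0 of 104 positions were marked.

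Of the genes with an FPKM of at least 1, 59 of 6331, or 0.932%, had no activation mark in the locus and 20 kb around it, and GC and AFM were among them. Read against genes of like level, of 2628 genes within 2-fold of the FPKM of GC, 9, or 0.342%, had no activation mark in this window. Of 1035 genes within 2-fold of AFM, 55, or 5.31%, had none. Within 2 kb of the TSS the shares were higher, at 5.25% for genes at the level of GC and 17.3% for genes at the level of AFM. By level GC was number 10 of the 59 and AFM number 46. The lists give no peak heights or read numbers, so whether weak marks were missed at AFM and GC was not tested.

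**Figure D3:**
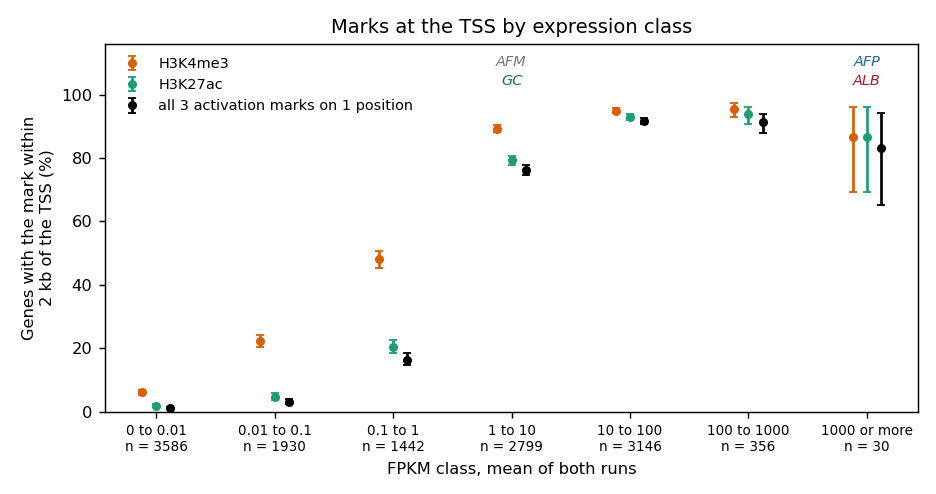
Share of genes (%, y axis) with H3K4me3, with H3K27ac and with all 3 activation marks on 1 position within 2 kb of the TSS, by FPKM class (x axis, mean of both runs), with exact 95% binomial intervals and the number of genes under each class. The names stand over the class of each member, and in the class from 1 to 10, that of AFM and GC, 89.3% of genes had H3K4me3 and 76.3% had the 3 marks on 1 position.

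H3K9me3 was called in the window of each member, where the median gene had 0 positions with it. The 5 positions of AFP were more than in 96.7% of genes, the 3 of AFM more than in 91.2%, and the 2 of ALB and of GC more than in 83.6%, and AFP and AFM share the same 3 positions. H3K27me3 was called at 1 position for ALB and for GC and at 0 for AFP and AFM. From 20 kb before ALB to 20 kb after AFM, 7 positions carried H3K9me3 and 1 carried H3K27me3, and around GC the numbers were 2 and 1. Of the 7, the 3 before AFM had another H3K9me3 position within 1 kb and the other 4 did not, among them those in AFP at 14714 and 17304 bp. In the genome, 19.6% (19.2 to 20.1) of H3K9me3 positions and 20.8% (20.3 to 21.3) of H3K27me3 positions had a neighbour with the same mark within 1 kb. Lone calls of this kind were thus the more common form of these marks in the lists.

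**Figure D4:**
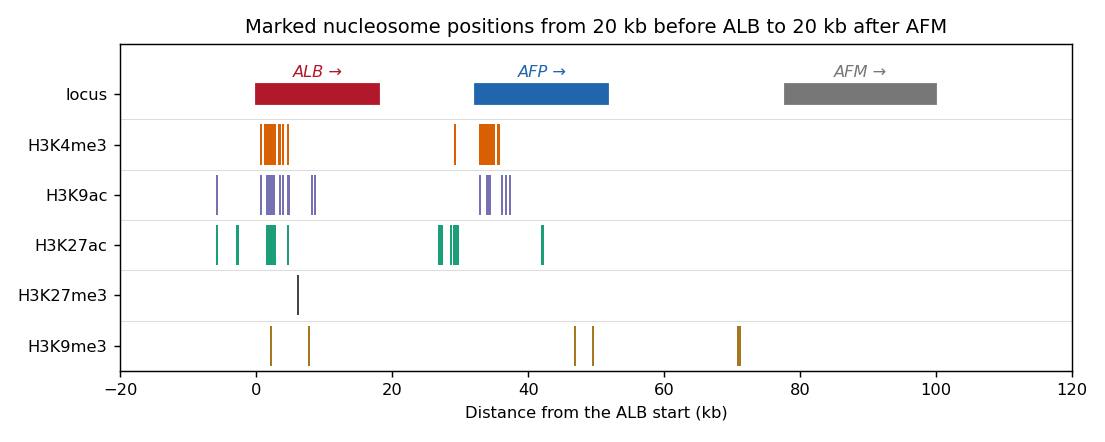
Nucleosome positions with each mark (rows, 1 line per position) by distance from the start of ALB (kb), from 20 kb before ALB to 20 kb after AFM, with the loci as bars and arrows in the direction of reading. Activation marks end inside AFP, and the 3 H3K9me3 positions before AFM are the last marked positions to the right.

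Nucleosome positions themselves were listed all through the loci, those of AFM and GC included. Over the locus and 20 kb around it, ALB had 4.94 positions per kb, AFP 5.14, AFM 5.36 and GC 5.08. The median of all genes was 5.19, with a 10th percentile of 4.69 and a 90th percentile of 5.51. The median step from 1 start to the next was 188 bp in ALB, 177.5 bp in AFP, 170.0 bp in AFM and 175 bp in GC. The midpoints of the positions on either side of the TSS were 270.0 bp apart at ALB and 135 bp apart at AFP, where the median was 283 bp over all genes and 375 bp over those with an FPKM of at least 1. For 47.3% of all genes the gap was smaller than at ALB, and for 6.21% it was smaller than at AFP. At AFM the midpoints lay 115 bp before and 25 bp after the TSS and at GC 107 bp before and 33 bp after it, a gap smaller in 7.56% of genes. At AFP a position was centred 11 bp before the listed TSS. The gap of 135 bp there is less than the width of a position, so these calls overlapped. Those at AFM and GC, 140 bp apart, abutted. The length of the locus minus that of the RefSeq gene is 882 bp for ALB, -394 bp for AFP, -178 bp for GC and 0 for AFM. The gaps of ALB, AFP and GC could change if any of this difference lies at the start, which was not checked.

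The nearest named neighbours lay far from the members and differed among themselves in level. ANKRD17, an ankyrin repeat protein of broad expression, lies 143 kb before ALB and was at an FPKM of 29.8 and 31.0, with 2 T within 2 kb of its TSS. RASSF6, a member of the RAS association family, lies 67.6 kb after AFM and had 0.0759 and 0.0712. On either side of GC, the bicarbonate transporter SLC4A4 had 0.0569 and 0.0238, and the neuropeptide receptor NPFFR2 was listed at 0 in both runs. NPFFR2 shared with GC the lack of any activation mark in its window, while SLC4A4 had 3 such positions.

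By the distance over 6 values, namely the log2 level and the log2 number of positions with each of the 5 marks, genes most like each member were picked by a fixed rule. For ALB they were APOA2 (distance 2.24) and the ribosomal protein genes RPL41 and RPS29. Positions were counted over the locus and 20 kb on either side, and 14 of the 28 H3K4me3 positions counted for ALB lie in the AFP locus. For AFP the nearest was GPC3, the cell surface proteoglycan glypican 3 (distance 1.80), with an FPKM of 1331, followed by RPS29 and RPLP0. For AFM it was ADH1A, an alcohol dehydrogenase (distance 0.469), with an FPKM of 1.75 and 0 positions with an activation mark, followed by LOC400643 and AGR2. For GC it was ERP27, a protein of the endoplasmic reticulum (distance 0.653), with an FPKM of 11.0, followed by ADH1B and LDHB. ADH1A and ADH1B have close copies among their neighbours, so their FPKM is uncertain. The distances of ALB and AFP to their nearest genes were larger than those of AFM and GC.

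Most factors known to act on these genes were expressed. Of 20 activators and liver factors, all were found in the table, and 18 had an FPKM of at least 1, beside 47.6% of all genes, with a median of 12.2. HLF, a PAR bZIP factor, was highest with 75.6 (run 1) and 75.7 (run 2), followed by CEBPA, a C/EBP factor of mature hepatocytes, with 70.6 and 71.5. HNF4A, a nuclear receptor of hepatocytes, had 66.6 and 62.7 at the higher of its 2 loci, whose coordinates are not its own. NR5A2, a nuclear receptor known for activating AFP, was the lowest with 0.273 and 0.399. Of 13 of these factors among the 13289 genes, 9 had a T within 2 kb of the TSS, beside 42.9% of all genes, 76.3% of genes at an FPKM from 1 to 10 and 91.7% of those from 10 to 100.

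Of 6 factors known for lowering AFP, 4 had an FPKM of at least 1, again beside 47.6%. Among them ZHX2 was at 7.64 (run 1) and 8.18 (run 2), and ZBTB20, known for repressing AFP after birth, had 2.12 and 1.48. ZFHX3, which shares its coordinates with another locus, had 6.05 and 6.29. NKX2-1, a lung and thyroid factor, was listed at 0 in both runs. Which of these factors bind at AFP was not measured.

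For albumin recycling and uptake, 4 of 6 genes had an FPKM of at least 1, where 47.6% of all genes did. B2M and FCGRT, the subunits of the Fc receptor that returns albumin to the blood, had 470.2 and 492 for B2M and 68.4 and 64.2 for FCGRT. CUBN and LRP2, the kidney receptors for filtered albumin, had 0.103 and 0.168 for CUBN and 0.0461 and 0.0359 for LRP2. The 17 other secreted proteins listed all had an FPKM of at least 1, from 8.07 for A1BG to 5209 for APOA2, with a median of 211, so AFM lay below all 17 and GC above A1BG alone. Of 13 of them among the genes analysed, 8 had a T within 2 kb, beside 42.9% of all genes and 91.3% of genes at an FPKM from 100 to 1000. TF, the iron carrier transferrin, had an FPKM of 1006 with no activation mark within 2 kb of its TSS. A1BG shares its coordinates with another locus.

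All 10 hepatocyte markers had an FPKM of at least 1, from 13.1 for CPS1 to ALB itself. Of 4 endothelial markers none reached 1, the highest being CDH5 with 0.693. Of 5 blood markers 4 were under 0.1, with PTPRC and CD3E at 0, and the fifth, CD68, had 543 but shares its coordinates with another locus, so their reads may not be told apart. Of 5 stellate or fibroblast markers PDGFRB had 2.06 and 1.95 in the runs and ACTA2, which shares its coordinates with another locus, 34.1 and 33.6, while the other 3 were under 1. Of 4 biliary markers KRT19, EPCAM and SOX9 had 110, 96.9 and 39.8, and KRT7 had 0.109. Coordinates shared with another locus were also listed for APOA1, ASGR2, HNF4A and CPS1 of the hepatocyte markers, for COL3A1 and for EPCAM. HepG2 is a single cell line, so the part of other cells in these levels was not tested.

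**Figure D5:**
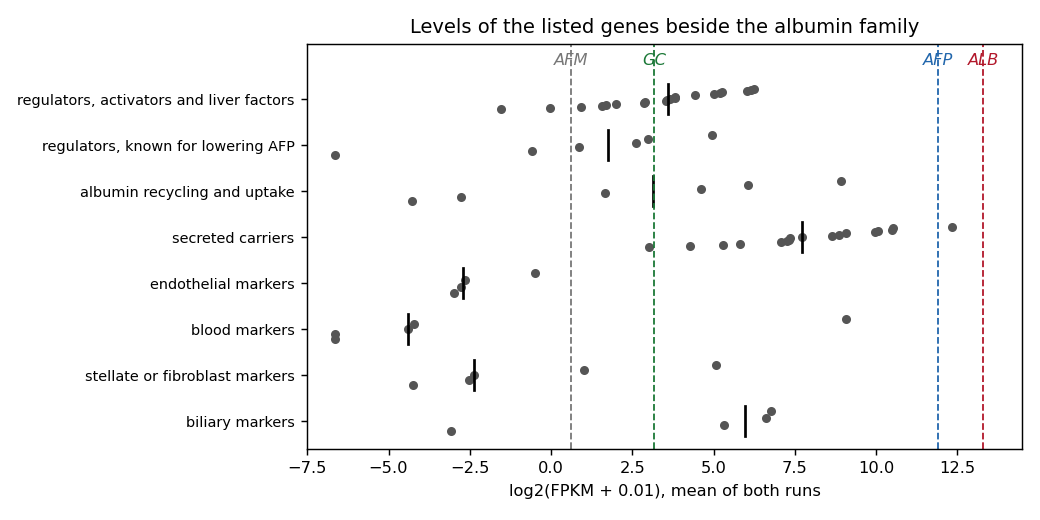
Level as log2(FPKM + 0.01) (x axis, mean of both runs) of each gene of the lists (rows, 1 point per gene, black bar for the median), with dashed lines for the albumin family genes. The hepatocyte markers are not drawn as a row. Points of the 17 secreted carriers lie between the lines of GC and AFP, except A1BG just under GC and APOA2 just above AFP.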

How the data were processed

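All 7 samples come from the HepG2 cell line, with 1 sample per assay. BWA and hg19 are named for the MNase-Seq and ChIP-Seq in the submitters' processing notes, and TopHat2 2.1.0, Bowtie, HOMER 4.7 and edgeR for the RNA-Seq, without their roles. The authors called nucleosome positions with DANPOS and marks with NUCLIZE at these positions, with P and FDR limits of 0.01 and a minimum enrichment of 4-fold, and deposited coordinates with an identifier and no height. FPKM values were computed by the authors and deposited in 2 columns, whose relation (culture or sequencing run) is not given in the sources used here, so they count as 1 replicate. The table also holds a comparison of these columns, which was not used.

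Each peak marked the position it overlapped most, whose identifier it carried in every case (0 mismatches). Listed starts were taken as counted from 0, since end minus start equalled the RefSeq length for 946 of 11312 genes and the other reading for 118. Strand was inferred from locus numbering, and 98.6% of 5730 loci with H3K4me3 at 1 end had it at the inferred TSS. Genes compared were 13289 with their own coordinates, 1 unique symbol and a strand. Members, lists and motifs were chosen with earlier results of these data known. The genes named were the members, the nearest named locus on either side, the 3 nearest genes by Euclidean distance, and up to 6 per list by highest or lowest FPKM, with others as said in the text. Some listed genes are not reported here by name. Log values used log2(FPKM + 0.01). Counting was tested on simulated data of 40000 positions, where 1000 of 1000 windows gave the planted counts. Alternatives were the run, the gene set, the pseudocount, the window and the overlap. Promoters came from RefSeq for ALB, AFP and AFM, and that of GC was not analysed here. Scripts ran in Python 3.11.15 with scipy 1.17.1, pandas 2.3.3, numpy 2.4.6 and matplotlib 3.10.9.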

Additional observations from a re-analysis of the deposited data

Results flagged for a closer look

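Outside the windows of the members, 24 positions with an activation mark lay in the 123 kb between ANKRD17 and the 20 kb before ALB. This is above the 3 that a count of 0 allows, which is a low bar for a region of this size. Of its 636 positions 28, or 4.40% (2.95 to 6.30, exact interval), carried any mark, where the genome-wide share was 1.43%. There is no control sample for this comparison. Most of them formed a stretch of 6000 bp from 74207377 to 74213376, 56.3 to 62.3 kb before ALB, in which 20 of 30 positions were marked, 18 with H3K27ac, 10 with H3K9ac, 5 with H3K4me3 and 3 with all of these. A smaller stretch 28.1 kb before ALB held 4 positions in a row with H3K27ac alone. No named locus of the expression table lies there, and whether these stretches act on ALB or AFP was not tested.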

How the results depend on the processing

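With 1 sample per assay no replicate could be left out, and a stricter peak threshold was not run because the lists hold no scores. No paired analysis was possible because no result comes from a test. Of 147 alternative values, 122 stayed within the counting interval or the spread of the runs, among them all under another overlap rule. The spread of 2 runs always holds both, so the runs alone test nothing. Widths moved most. In the locus alone ALB had 13 H3K4me3, 13 H3K9ac and 8 H3K27ac positions, and with 10 kb around it 13 H3K4me3, and with 50 kb 9.48% of its positions were marked. Its T numbered 0 within 1 kb and 7 within 5 kb of the TSS. With the start moved by the whole difference in length from RefSeq, an alternative added after seeing the data, 6 lay within 2 kb. AFP in the locus alone had 2 H3K27ac positions and 20.8% of positions marked, and with 50 kb 28, 21 and 21 positions with H3K4me3, H3K9ac and H3K27ac. AFM had 0 H3K9me3 positions and 0% marked in the locus alone, and with 50 kb, which reaches into AFP, 15, 7 and 7 positions with the activation marks and 4.71% marked. GC had 0 H3K27me3 positions in the locus alone. AFM was above 51.0% of all named loci and 22.2% of genes that reached an FPKM of 0.1, and GC above 69.7% and 51.7%. With a pseudocount of 1 the log2 ratio of ALB was 11.96 to AFM and 9.97 to GC.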
